A study of Nicotiana benthamiana with 12 samples.

Results

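The probes described here are 100 of the 43759 probes of a tobacco array whose order between the transgenic line L2 and WT turned over with salt. Without salt every one of the 3 L2 arrays lay below every one of the 3 WT arrays, and under salt stress every L2 array lay above every WT array. The members were chosen from the deposited table of log2 values, in which the 75th percentile of each array is 0. A probe could be taken if the scanner software put it well above background on all L2 salt and all WT normal arrays, which held for 20796 probes. Its mean also had to be higher under salt stress than under normal conditions in L2, and lower under salt stress in WT, which left 5486. A block of spots at rows 284 to 301 and columns 1 to 5, with 86 probes, was left out, as were probes that the study's list of genes higher in L2 under salt stress annotates as APS reductase-like, Ycf2, Ycf3, maturase K or chloroplast NAD(P)H dehydrogenase. Each of the remaining 5464 probes was scored by the smaller of 2 gaps, which are the lowest WT normal array minus the highest L2 normal array, and the lowest L2 salt array minus the highest WT salt array. The score was above 0 for 296 probes, and the 100 highest, from 0.326 down to 0.0848 on the log2 scale, make up the members. All 12 arrays entered this choice, so the levels and differences below are descriptions of the members and carry no test.

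The 4 groups, L2 under salt stress, L2 under normal conditions, WT under salt stress and WT under normal conditions, had 3 arrays each. L2 is a single tobacco line that expresses CbFAD3, a microsomal ω-3 fatty acid desaturase gene of the cryophyte Chorispora bungeana, under the CaMV 35S promoter, and WT is tobacco without the transgene. Seedlings of both lines were 2 weeks old, had been kept at 25 °C in days of 16 h light and 8 h dark, and the stressed ones had been in 200 mM NaCl for 6 h. RNA came from pooled leaves, for which the sample labels give 3 plants and the design notes 5. The labels name N. benthamiana and the array was designed for N. tabacum. The spread between arrays is that between these pooled samples, and fewer cells of a type cannot be told apart from less RNA per cell.

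The 12 arrays lay on 3 slides that do not cross with the groups. Slide 1 held L2 normal 1 with the 3 WT normal arrays, slide 2 held WT salt 1 and 2 with L2 normal 2 and 3, and slide 3 held the 3 L2 salt arrays with WT salt 3. Per array, 49.2% to 63.0% of the probes had a signal well above background, and 0 spots were saturated. All 100 members were well above background on all 12 arrays, as were 99.1% of the 5464 probes from which they were drawn. The files pair probes with accessions and hold no gene descriptions, so leaf and other cell type markers were not looked up by name. A probe for putrescine N-methyltransferase, a root enzyme of nicotine synthesis, on the study's list was well above background on 5 of the 12 arrays, and its part in any result was not tested.

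Fatty acid desaturases of this kind add a double bond to the fatty acids of membrane lipids in the endoplasmic reticulum, and membranes rich in such fatty acids are more fluid. Sodium chloride stresses leaves in an early osmotic phase and later by the ions themselves, and nitrogen assimilation is among the processes that many plants turn down. Nitrate reductase carries out the first step of that pathway, the reduction of nitrate to nitrite in the cytosol, and its mRNA is known to respond to nitrate, light and sugars. Transporters named sodium-coupled neutral amino acid transporters carry amino acids such as glutamine with sodium in mammals.

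Between the lines, the members were lower in L2 without salt and higher in L2 with it. The median difference of L2 normal minus WT normal over the 100 members was -0.65 on the log2 scale, with a range of -1.63 to -0.28, against -0.15 over all 26312 probes tested. Of the members, 13 were more than 2-fold lower in L2, and that share was 4.16% of all probes tested. Under salt stress the median of L2 salt minus WT salt was 0.50, with a range of 0.15 to 1.15, against 0.03 over all probes tested. Only 4 members were more than 2-fold higher in L2 under salt stress, against 0.973% of all probes tested. These are the probes of the amino acid transporter and of nitrate reductase, A_95_P030766 (FG637828) and A_95_P048196 (BP131845). Groups that do not overlap were a condition of the choice, and over all probes tested L2 lay wholly below WT without salt in 12.1% and wholly above WT with salt in 8.51%.

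Within the lines, the median of L2 salt minus L2 normal on the deposited scale was 0.45, with a range of 0.01 to 1.26. The median of WT salt minus WT normal was -0.68, with a range of -2.38 to -0.12, and it lay in that direction for all 100 members on this scale, but turned to 0.040, with 55 members higher and 45 lower, when the arrays were scaled on spike-in controls. Over all probes tested these medians were 0.00 in L2 and -0.20 in WT. In a fit that takes the slide as a block the members' medians were 0.47 in L2 and -0.34 in WT, so which line differed more turned with that setting. In L2, 2 members were more than 2-fold higher with salt (1.9% of all probes tested), and in WT, 23 were more than 2-fold lower (9.73% of all probes tested). The L2 salt arrays lay wholly above the L2 normal arrays for 48 members, where 8.52% of all probes tested did, and in the other 52 the L2 arrays overlapped. The WT salt arrays lay wholly below the WT normal arrays for 95 members, where 41% of all probes tested did. Both held together in 43 members and in 0.543% of all probes tested. The choice used these values, so nothing is read from the shares. In L2 the difference with salt was thus one of means alone for 52 members, and on the deposited scale the difference in WT was the larger in 70 of the 100.

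**Figure D1:**
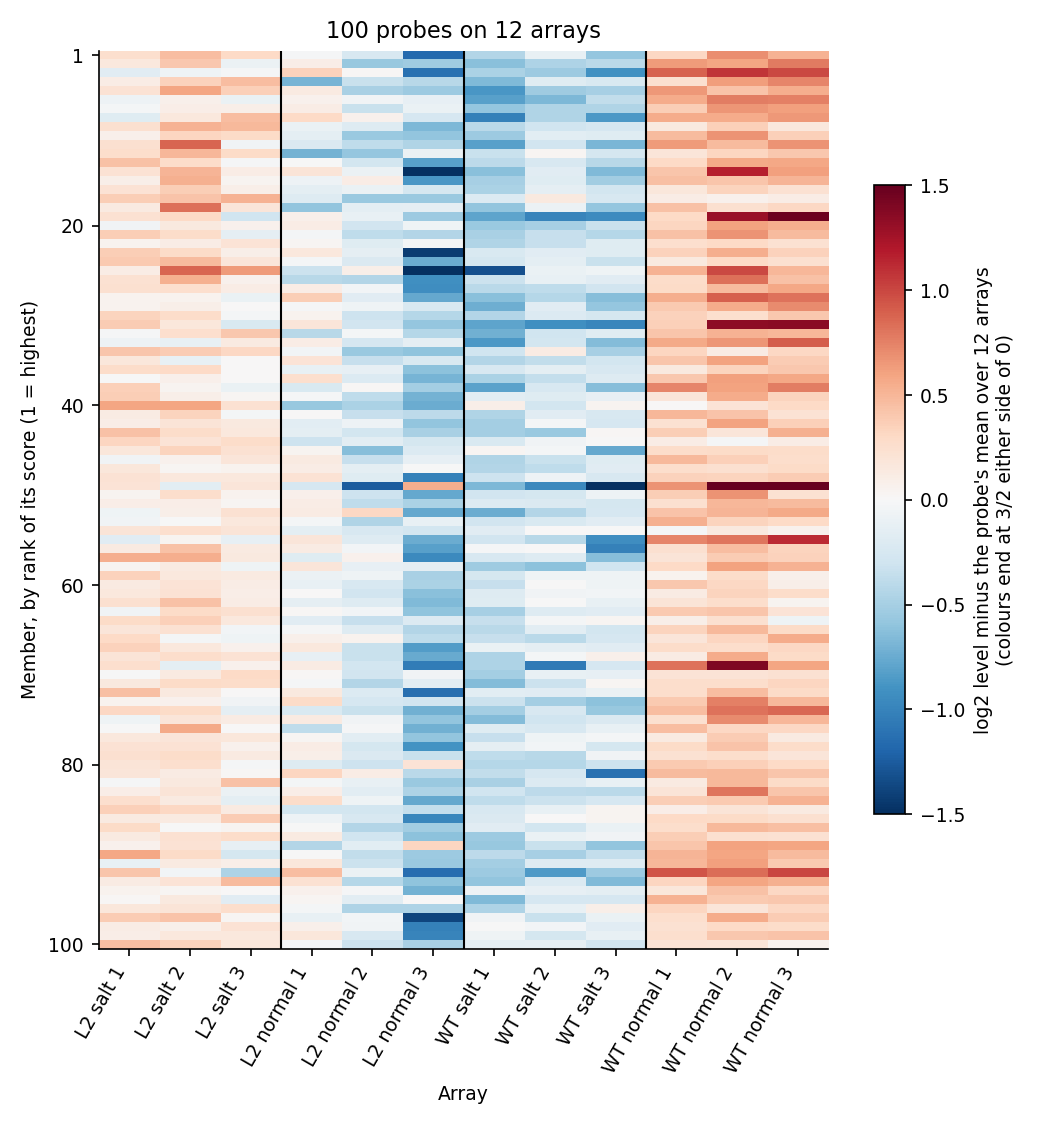
Log2 level of the 100 members (rows, by rank of score) on the 12 arrays (columns: L2 salt, L2 normal, WT salt, WT normal), each probe centred on its mean over the arrays. Red is higher and blue lower; WT normal arrays stand highest on most rows, L2 normal 3 is the lowest array for 54 members, and the L2 salt mean lies below the WT normal mean for 85.

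At the high end of the crossing, on the deposited scale, the L2 salt mean was below the WT normal mean for 85 members and above it for 15, with a median difference of -0.23 and a range of -1.23 to 0.34, against a median of -0.18 over all probes tested and -0.39 over the spike-in controls. On spike-in controls as the scale the median turned to 0.17, with 72 members higher in L2 salt and 28 lower. On the deposited scale the arrays of these groups overlapped in 54 members, all L2 salt arrays lay below all WT normal arrays in 43 (34.7% of all probes tested), and all lay above in 3 (19.5% of all probes tested). Those 3 are A_95_P016781 (TA13435_4097), A_95_P011461 (AB036735) and A_95_P196637 (EH620951). Each has a second probe that is not a member, A_95_P131032, A_95_P231584 and A_95_P097368 in that order. For these probes L2 salt minus WT normal was 0.79, -0.62 and 0.29. Their L2 salt and WT normal arrays overlapped in A_95_P131032 and A_95_P231584 and lay apart in A_95_P097368. At the low end, WT salt and L2 normal were close, with a median of WT salt minus L2 normal of -0.05, a range of -0.82 to 0.55, and overlapping arrays in 86 members, and on the controls as the scale this median was 0.17, with 73 members higher in WT salt. All WT salt arrays lay above all L2 normal arrays in 3 members (6.08% of all probes tested) and below in 11 (5.28% of all probes tested). The lowest of the 4 means was that of L2 normal in 45 members and that of WT salt in 55.

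The members' salt responses differed between the lines by a median of 1.09 on the log2 scale (L2 response minus WT response), with a range of 0.55 to 2.77, and by more than 2-fold in 67 members, where 7.64% of all probes tested did so in that direction. The widest was BP131845 (A_95_P048196), whose gene is not annotated in the files. It read -2.50, -2.86 and -2.53 on the L2 salt arrays, -2.96, -3.96 and -2.16 on the L2 normal arrays, -3.38, -3.68 and -4.29 on the WT salt arrays, and -2.04, -1.18 and -0.99 on the WT normal arrays. Its WT arrays with and without salt were thus well apart, 5.20-fold on the means, while its L2 salt arrays lay inside the range of its L2 normal arrays. The second widest, FG637828 (A_95_P030766), moved by 2.43 and was the member with the largest difference in L2, with 0.94, 1.70 and 1.47 on the L2 salt arrays and 0.50, 0.92 and -1.10 on the L2 normal arrays. On the WT arrays it had -0.50, 0.72 and 0.76 with salt and 1.34, 1.81 and 1.32 without. All 3 L2 salt arrays of this probe lay above its L2 normal arrays, and L2 normal 3 stood far below the other 2. Outside the members, the other probes of FG637828, A_95_P135667 and A_95_P003626, had L2 salt minus L2 normal of 0.99 and 1.21 and WT salt minus WT normal of -1.16 and -0.95, and their salt responses differed by 2.15 and 2.16. The L2 and WT arrays of both overlapped under salt stress, with gaps of -0.61 and -0.22. Without salt the gaps were 0.15 and -0.09, so the lines overlapped there too in A_95_P003626.

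**Figure D2:**
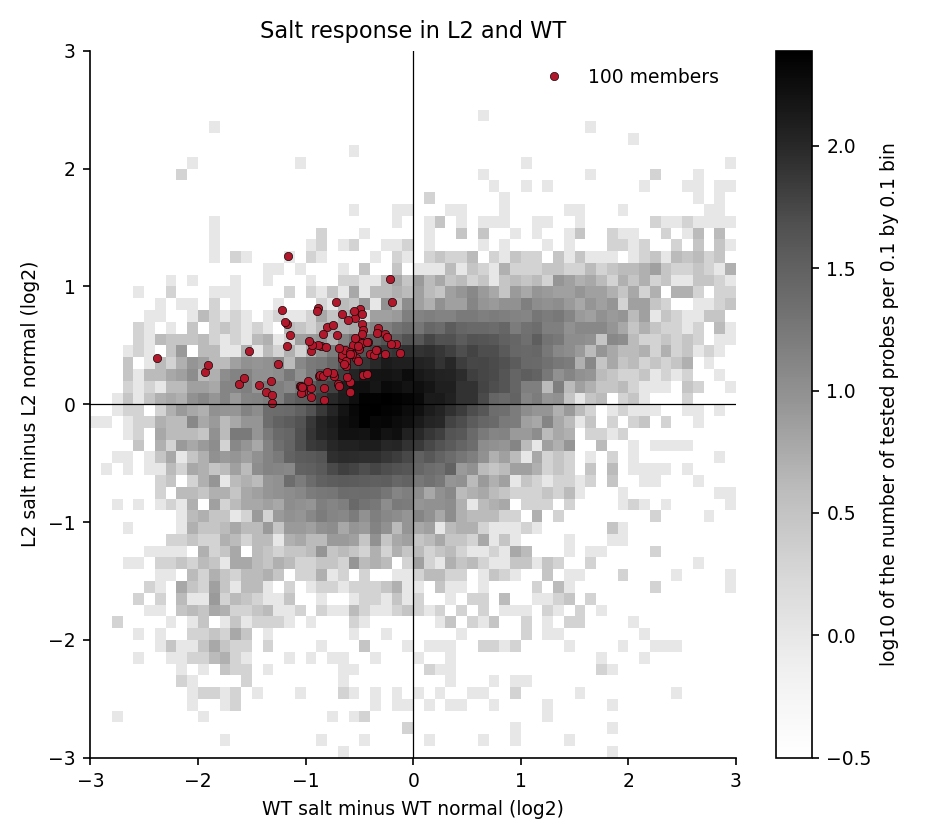
Salt response of each probe in WT (horizontal axis, WT salt minus WT normal, log2) and in L2 (vertical axis, L2 salt minus L2 normal, log2). Grey bins count the 26151 of 26312 tested probes inside the window; red points are the 100 members, which fill the upper left part by choice, as do 24.5% of all tested probes, and lie closer to 0 in L2 than in WT for 70. On spike-in controls as the scale, 55 of the members have a higher mean with salt in WT.

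Nitrate reductase is the one annotated enzyme among the members and ranks at place 31. Its member probe, A_95_P258921 (X06134), read -0.72, -0.93 and -1.32 on the L2 salt arrays, -0.92, -1.39 and -1.68 on the L2 normal arrays, -1.89, -2.02 and -2.08 on the WT salt arrays, and -0.75, 0.24 and 0.25 on the WT normal arrays. The WT arrays with salt were tight and low, and those without salt were high, with WT normal 1 well below the other 2. The L2 arrays with and without salt overlapped, and both L2 means lay between the WT means. The means were -0.99 ± 0.31 in L2 salt, -1.33 ± 0.39 in L2 normal, -2.00 ± 0.10 in WT salt and -0.09 ± 0.57 in WT normal (SD, n = 3 each). Nitrate reductase mRNA was thus 2.01-fold higher in L2 than in WT under salt stress, while WT normal was 2.36-fold higher than L2 normal. In WT the level without salt was 3.76-fold that with salt, and in L2 salt exceeded normal 1.26-fold.

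A second probe with the same accession, A_95_P247817, is not a member, with a score of 0.043. It read 2.16, 2.38 and 1.54 on the L2 salt arrays, 1.44, 1.23 and 1.52 on the L2 normal arrays, 0.74, 1.50 and 0.87 on the WT salt arrays, and 2.40, 3.01 and 3.02 on the WT normal arrays. For this probe the salt and normal arrays were apart in both lines, and L2 salt exceeded L2 normal 1.55-fold. WT normal was 3.41-fold above WT salt and 2.66-fold above L2 normal. Under salt stress its L2 arrays lay above its WT arrays by 0.04 at the closest, and by 1.99-fold on the means. Both probes therefore gave the same order of the 4 means, WT normal, L2 salt, L2 normal and WT salt from high to low. On spike-in controls as the scale the 4 differences between L2 and WT and between salt and normal kept their directions in both probes, with L2 salt minus L2 normal at 0.24 for the member and 0.54 for the second probe.

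**Figure D3:**
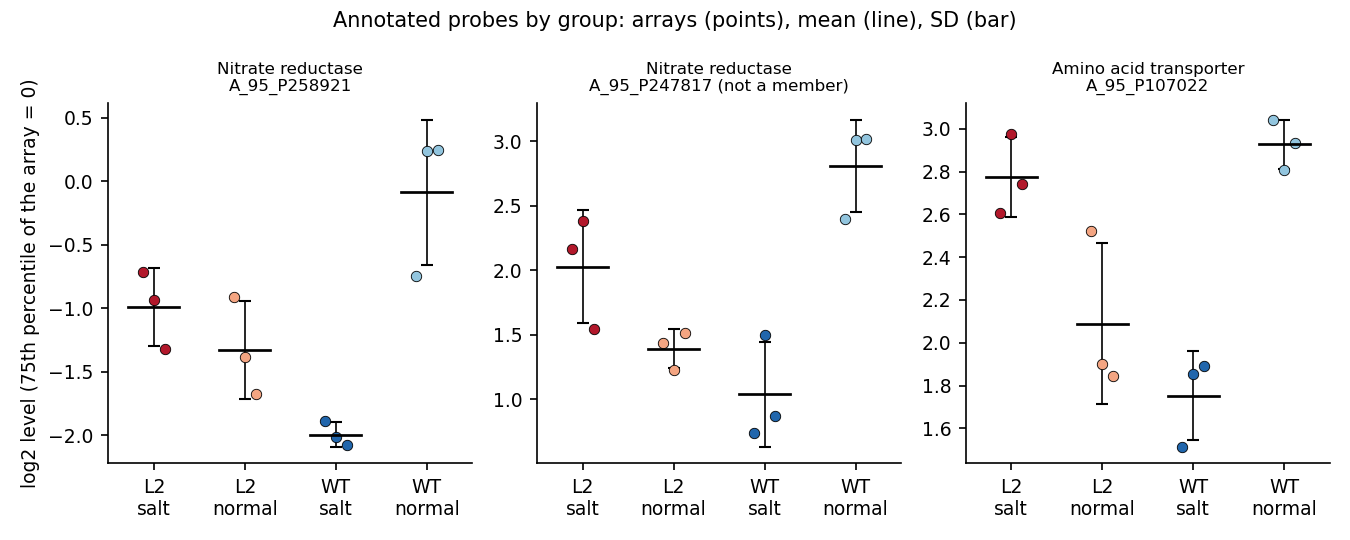
Log2 level (75th percentile of the array at 0) of both nitrate reductase probes and of the amino acid transporter probe by group, with points for arrays, lines for means and bars for SD (n = 3). In all 3 panels WT normal has the highest mean and WT salt the lowest, with L2 salt above L2 normal.

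The member whose centred values ran closest to nitrate reductase was A_95_P180542 (TA12769_4097), at rank 19. The values differed by 0.10 log2 units in root mean square over the 12 arrays (r = 0.99, a description over arrays that share slides and groups). It had -0.93, -0.86 and -1.46 on the L2 salt arrays, -1.08, -1.27 and -1.70 on the L2 normal arrays, -1.96, -2.15 and -2.11 on the WT salt arrays, and -0.87, 0.14 and 0.32 on the WT normal arrays. The low WT normal 1 array and the tight WT salt arrays of nitrate reductase recur there. The next closest were A_95_P200107 (TA17138_4097) and A_95_P240895 (FG642146), at 0.31 and 0.33 log2 units. None of the 3 has a gene name in the files, and whether TA12769_4097 is a further nitrate reductase sequence was not tested.

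The other annotated member is the sodium-coupled neutral amino acid transporter, A_95_P107022 (CV018176), at rank 5. It read 2.61, 2.97 and 2.74 on the L2 salt arrays, 2.52, 1.90 and 1.84 on the L2 normal arrays, 1.51, 1.85 and 1.89 on the WT salt arrays, and 3.04, 2.81 and 2.93 on the WT normal arrays. L2 salt lay above L2 normal on every array and overlapped WT normal, and WT salt was low throughout. The means were 2.77 ± 0.19 in L2 salt, 2.09 ± 0.37 in L2 normal, 1.75 ± 0.21 in WT salt and 2.93 ± 0.12 in WT normal (SD, n = 3 each). L2 salt exceeded WT salt 2.03-fold and L2 normal 1.61-fold, WT normal exceeded L2 normal 1.79-fold, and WT normal was 2.26-fold above WT salt. Its gap under salt stress, 0.71, was the widest of the members. On L2 salt 3 the spots around this probe had a floor 1.02 log2 units below that around the members in general, and the value on that array lay between those of L2 salt 1 and 2.

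The study's list of genes higher in L2 under salt stress holds 61 probes, of which 20 passed the conditions on flags, means and exclusions, and the transporter and nitrate reductase were the 2 that ranked among the members. The next listed probe, an aspartate aminotransferase, stood at rank 2710 with a score of -0.25. On that list, 3 probes annotated as APS reductase-like (A_95_P186302, A_95_P134087 and A_95_P134072), an enzyme of sulfate assimilation, would have ranked 18, 24 and 80 had they not been left out by name. The list was chosen by the study on these arrays, so its overlap with the members is no independent evidence.

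The 12 members with the highest scores were crossing probes of moderate size. L2 normal minus WT normal lay between -1.24 and -0.54 in them, and L2 salt minus WT salt between 0.53 and 1.02. L2 salt minus L2 normal ranged from 0.01 to 0.82, and WT salt minus WT normal from -1.62 to -0.49. At the top, EH614430 (A_95_P156657) had 0.94, 1.16 and 1.00 on the L2 salt arrays, 0.68, 0.45 and -0.47 on the L2 normal arrays, 0.26, 0.58 and 0.12 on the WT salt arrays, and 1.00, 1.39 and 1.22 on the WT normal arrays. L2 salt and WT normal overlapped at the high end there, and L2 normal and WT salt at the low end. AM834276 (A_95_P268551) had -1.03, -0.79 and -1.28 on the L2 salt arrays, -1.09, -1.76 and -1.73 on the L2 normal arrays, -1.82, -1.66 and -1.60 on the WT salt arrays, and -0.55, -0.60 and -0.41 on the WT normal arrays. Its WT normal arrays stood above all others, and its L2 groups overlapped on 1 array of each.

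More than 1 form of the crossing occurred among these 12. In FG193550 (A_95_P316198) the L2 level hardly differed with salt, at -2.13, -1.98 and -2.15 on the L2 salt arrays and -1.99, -2.11 and -2.19 on the L2 normal arrays. The WT arrays of FG193550 read -2.87, -2.73 and -2.43 with salt and -1.50, -1.29 and -1.30 without. The crossing of this probe was therefore one of the WT level around a steady L2 level, and on spike-in controls as the scale its L2 salt mean lay below its L2 normal mean, with a difference of -0.09. L2 salt minus L2 normal was also small, at 0.16, 0.17 and 0.11, in TA13562_4097 (A_95_P183897), FG635129 (A_95_P254304) and EB445881 (A_95_P142407). Of these, FG635129 had widely spread L2 normal arrays, at 1.76, 1.44 and 0.30. In EH621781 (A_95_P198044) and EB447713 (A_95_P184962) the difference in L2 was instead the larger, 0.81 against -0.49 in WT and 0.74 against -0.54 in WT. EH621781 had 0.45, 0.68 and 0.47 on the L2 salt arrays, -0.52, -0.40 and 0.11 on the L2 normal arrays, -0.15, 0.22 and -0.08 on the WT salt arrays, and 0.36, 0.51 and 0.59 on the WT normal arrays. For those 2 probes WT salt minus WT normal was 0.22 and 0.18 on spike-in controls as the scale, the opposite direction.

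**Figure D4:**
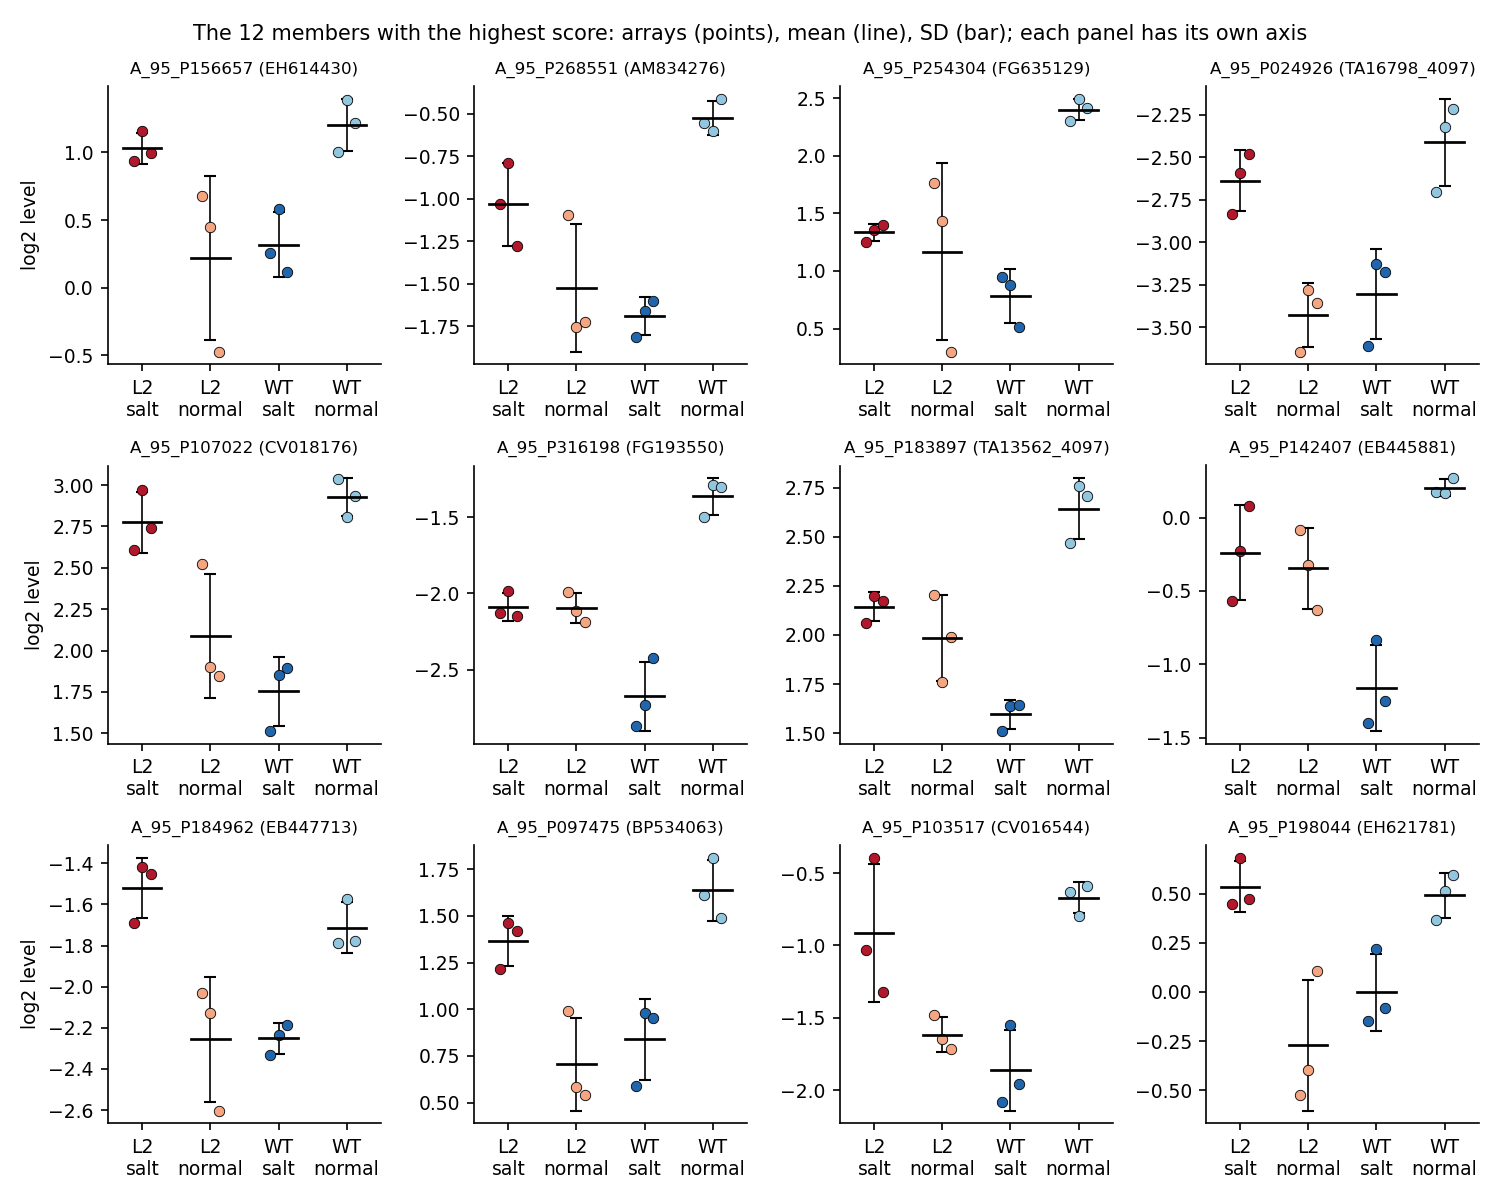
Log2 level of the 12 members with the highest score in L2 salt, L2 normal, WT salt and WT normal, with points for arrays, lines for means and bars for SD (n = 3). In every panel both unstressed groups and both stressed groups are apart between the lines, as the choice required, and the L2 normal bars are often the longest.

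Among the rest of the 12, TA16798_4097 (A_95_P024926) had L2 salt minus L2 normal of 0.79 and WT salt minus WT normal of -0.89. BP534063 (A_95_P097475) had 0.66 and -0.80, and CV016544 (A_95_P103517) had 0.70 and -1.19. In these 3 probes the salt and normal arrays were apart in both lines.

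Some members share an accession, and whether such probes read the same transcript was not tested. The 100 probes carry 96 accessions, and 7 members share theirs with another. TA14111_4097 had 3 members, A_95_P130732, A_95_P186367 and A_95_P245132, at ranks 13, 36 and 74. Their L2 salt minus L2 normal was 0.60, 0.48 and 0.59, and their WT salt minus WT normal was -0.84, -0.51 and -1.15. A_95_P130732 read 4.19, 4.02 and 3.73 on the L2 salt arrays, 3.74, 3.48 and 2.94 on the L2 normal arrays, 3.35, 3.50 and 3.33 on the WT salt arrays, and 4.05, 4.32 and 4.33 on the WT normal arrays. On L2 salt 3 the spots around A_95_P130732 and A_95_P245132 had a floor 1.10 and 1.02 log2 units below that around the members in general, and all 3 probes had their lowest L2 salt value on that array.

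EB427485 had 2 members, A_95_P215882 and A_95_P015671, with L2 salt minus WT salt of 0.52 and 0.40 and L2 normal minus WT normal of -0.41 and -0.59. FG202802 also had 2, A_95_P287713 and A_95_P043761, with 0.29 and 0.34 under salt stress and -0.54 and -0.74 without. Beyond the members, 20 further probes carry one of 17 member accessions. Of these, 17 had L2 below WT without salt and above it with salt on the means, where 39.6% of all probes tested did, and 11 had all 4 differences in the members' directions, where 21.5% did. Only 5 of the 20 had a score above 0. These probes share samples and accessions with the members and are no replicates of them. In 9 of the 20, then, at least 1 of the 4 differences ran the other way.

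The members' arrays varied most in L2 without salt. The median SD between arrays was 0.14 in L2 salt, 0.31 in L2 normal, 0.15 in WT salt and 0.12 in WT normal, and L2 normal had the largest SD of the 4 groups in 68 members. L2 normal 3 was the lowest of all 12 arrays in 54 members, and L2 normal 1 the highest of its group in 81. L2 normal 1 lies on slide 1 with WT normal, and L2 normal 2 and 3 lie on slide 2. At the other end, WT normal 2 was the highest of all arrays in 43 members and WT normal 3 in 24. Without L2 normal 3 the median of L2 salt minus L2 normal was 0.28 in place of 0.45, and without L2 normal 1 only 24 of the members were taken by the same rule. Leaving out an array can only widen the gaps, and over the 12 such settings 297 to 1112 probes had a score above 0, against 296 with all arrays.

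Slides and spike-in controls moved with the members. The controls are E1A transcripts added to the RNA before labelling, and 8 of the 10 control probes were well above background. Their median was -0.52 for L2 normal minus WT normal (8 of 8 lower), 0.33 for L2 salt minus WT salt (8 of 8 higher), 0.13 for L2 salt minus L2 normal (7 of 8 higher) and -0.72 for WT salt minus WT normal (8 of 8 lower). The group means of the controls thus ran in the 4 directions of the members, at sizes of the same order between lines and in WT. On the controls as the scale, a choice made after seeing the data, the median over all probes tested was 0.34 for L2 normal minus WT normal, -0.29 for L2 salt minus WT salt, -0.10 for L2 salt minus L2 normal and 0.52 for WT salt minus WT normal. Relative to those medians the members stood at -0.50, 0.46, 0.45 and -0.48. These relative values are the same on both scales by construction, because the scales differ only by a shift of each array, so nothing is read from that. Of the members, 82 were lower in L2 without salt, 88 higher in L2 with salt and 96 higher with salt in L2 on that scale.

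On that scale 23 of the members were among the 100 taken, and just 2 probes had a score above 0, A_95_P130662 (EB430729) and A_95_P105122 (FG147325), neither of them a member. For nitrate reductase (A_95_P258921) the differences on the controls as the scale were -0.75 for L2 normal minus WT normal, 0.69 for L2 salt minus WT salt, 0.24 for L2 salt minus L2 normal and -1.19 for WT salt minus WT normal. For the transporter (A_95_P107022) they were -0.34, 0.70, 0.59 and -0.46. Both annotated members kept the 4 directions there.

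The lines can also be set against each other within slides, where the choice of members fixed the direction. On slide 1, L2 normal 1 minus the mean of the WT normal arrays had a median of -0.38 over the members, against -0.65 over all arrays. The same difference was 0.03 over all probes tested and 0.10 over the controls. On slide 3, the mean of the L2 salt arrays minus WT salt 3 had a median of 0.41 over the members, against 0.50 over all arrays. That difference was 0.05 over all probes tested and -0.06 over the controls. On slide 2, WT salt minus L2 normal had a median of 0.06 in the members, with 60 higher and 40 lower, as over all probes tested (0.06). All 100 members were lower in L2 on slide 1 and higher in L2 on slide 3, as arrays that do not overlap require.

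No slide holds both conditions of one line, so salt and slide can be told apart only through a fit that takes the slide as a block. There slide 1 is linked to slide 2 only through L2 normal 1, and slide 3 to slide 2 only through WT salt 3. The salt difference in WT thus rests on the single array L2 normal 1, and that in L2 on WT salt 3. In that fit, 95 of 100 members were higher with salt in L2, with a median of 0.47 against 0.10 over all probes tested. In WT, 81 of 100 were lower with salt, with a median of -0.34 against 0.09 over all probes tested. For nitrate reductase the slides gave -0.83 (slide 1, L2 normal minus WT normal) and 1.09 (slide 3, L2 salt minus WT salt), and for the transporter -0.41 and 0.88. The second nitrate reductase probe, A_95_P247817, gave -1.37 and 1.16. The part of slide and labelling in the salt differences was not tested further.

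**Figure D5:**
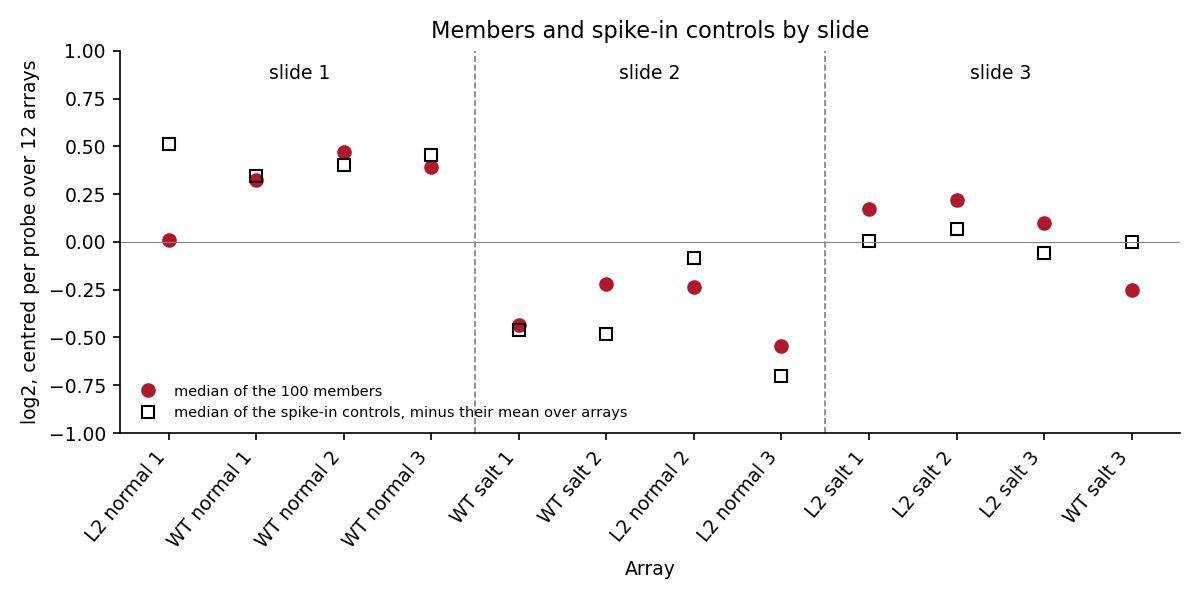
Median log2 level of the 100 members (red circles) and of 8 spike-in control probes (open squares) on each array, centred per probe over the 12 arrays and ordered by slide. The controls are high on slide 1 and low on slide 2, where L2 normal 2, at -0.08, is the nearest to slide 3. The members are high on slide 1 apart from L2 normal 1, and low on slide 2. On slide 1, L2 normal 1 has members at 0.01 and controls at 0.51, and on slide 3, WT salt 3 has members at -0.25 and controls at 0.00.

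In the fit of limma over the 12 arrays, with calls made over 2-fold and below 0.05 in the p adjusted by Benjamini-Hochberg, the members were called mainly in WT. With salt in L2, 1 member was called higher, against 0.0152% of all probes tested. That call was lost with the slide as a block, with the replicate number as a block and in the methods' t-test (0 members each). It was also lost with normexp, on spike-in controls as the scale and without a filter on dim probes. The same held with only the groups compared and with the replicate block over the L2 arrays alone. The remaining alternatives called 1 to 3 members, and 1 member was called in 3 of the 12 fits that leave out an array. The member called in the fit over the 12 arrays is EB450158 (A_95_P032211), named after its values were seen, with 0.91, 0.92 and 0.56 on the L2 salt arrays, -0.25, -0.14 and -0.41 on the L2 normal arrays, 0.41, 0.06 and 0.37 on the WT salt arrays, and 0.33, 0.54 and 0.63 on the WT normal arrays. L2 without salt was the single low group of EB450158, and its WT arrays overlapped. With salt in WT, 21 members were called lower, against 6.95% of all probes tested, and 61 passed the adjusted p alone. With the slide as a block limma called 0 members and 0 of all probes in WT, while 1863 probes had an unadjusted p below 0.05.

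Between the lines limma called 0 members without salt, against 0.0038% of all probes tested, and 0 under salt stress, against 0%. For the difference between the salt responses it also called 0, against 0%, while 4715 of the 26312 probes had an unadjusted p below 0.05. That number was 5493 for the lines without salt and 1535 with it. With array weights in limma, 70 members and 5353 probes were called for the difference between the responses, and without L2 normal 1 the numbers were 81 and 4416. The members were chosen on these contrasts, so no p is given for them and nothing is read from the counts.

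The members lay across the whole array. In 5 equal bands of columns they numbered 12, 20, 18, 25 and 25, where the probes the rule could take were spread at 18.8%, 21.1%, 20.5%, 19.9% and 19.6%. In 4 equal bands of rows they numbered 22, 23, 30 and 25. Of their 1200 spots, 0 carried an outlier flag, and 7 in 7 members had a local floor more than 2-fold from that of the members on the same array.

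At the edge of the choice, the members hardly differed from the probes next to them. Inside it stood FG639604 (A_95_P261031), BP132208 (A_95_P021221) and AM830506 (A_95_P277793), with scores of 0.0852, 0.0851 and 0.0848. Just outside were TA12793_4097 (A_95_P013036), FG143321 (A_95_P086190) and CV017224 (A_95_P104922), with 0.0843, 0.0837 and 0.0835. The differences between the salt responses were 0.81, 1.00 and 0.94 inside and 1.32, 1.46 and 0.95 outside, so that the edge is one of score and not of the size of the crossing. In the reverse order, salt raised the mean in WT and lowered it in L2, and the gaps were turned round. There 157 of 2911 probes had a score above 0, against 296 of 5464 in the order of the members. As shares of the probes scored in each order these were nearly equal.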

How the data were processed

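The 12 samples were each hybridized to 1 Agilent array in a single colour. The authors extracted the spots with Agilent Feature Extraction (10.7.3.1 in the submitters' processing notes, 11.5.1.1 in the array headers), and the deposited scanner values are background-subtracted intensity values without any scaling across arrays. The deposited value table is on the log2 scale with the processed signal set against the array's 75th percentile, and 100% of its values lay within 0.01 of one shift per array from the scanner values. The study analysed it with GeneSpring GX. Members were chosen on this table. The members, the lists and the probes named were chosen with earlier results of these data known.

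The rule names the 12 members with the highest score, the 3 lowest and the 3 next below, members on the study's list, members that share an accession, and other probes of those accessions. Further probes were named after their values were seen. Lists by gene description could not be looked up. For the fit, controls and 32 outlier-flagged spots were dropped and repeated spots averaged. A probe was tested if the 3 arrays of some group all had it well above background, which held for 26312. Group means were fitted in limma 3.58.1 (R 4.3.3; lmFit, contrasts.fit, eBayes) with 8 residual degrees of freedom, and adjusted by Benjamini-Hochberg. The fit was tested on simulated data. Same-numbered arrays correlated between -0.31 and 0.41 in their deviations. L2 salt and L2 normal correlated at 0.37, 0.19 and 0.41, and no other pair of groups had all 3 values above 0.1. The main fit has no pairing. The replicate number entered only in alternatives, as a block over all arrays and as a block over the L2 arrays alone. Arrays with different numbers were not correlated, so whether the numbers mark a pairing was not tested. Alternatives were normexp on the median signal (offset 50), other scalings, filters, blocks, weights, the methods' t-test, other forms of the rule, and each array left out. Python 3.11.15, numpy 2.4.6, pandas 2.3.3 and matplotlib 3.10.9 were used. With 3 arrays in a group, precision is limited by their number.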

Additional observations from a re-analysis of the deposited data

Results flagged for a closer look

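The second nitrate reductase probe, A_95_P247817 (X06134), differed with salt in opposite directions in the lines: each L2 salt array lay above each L2 normal array, and each WT salt array below each WT normal array. No slide holds both conditions of a line. In L2 the closest arrays of this probe read 1.543 (L2 salt 3) and 1.515 (L2 normal 3), and in WT 1.50 (WT salt 2) and 2.40 (WT normal 1). The salt response of this probe in L2 minus that in WT was 2.40 on the log2 scale, and the probe was not among those called: limma called 0 of the 26312 probes for this difference, while 4715 had an unadjusted p below 0.05. With 3 arrays per group, no array was dropped as an outlier from the main fit. Fits with array weights and with each array left out are given below.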

How the results depend on the processing

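The values here are medians over the 100 members on the log2 scale. The difference between the salt responses, 1.09, was 0.90 with the 75th percentile taken over probes detected on all arrays, 0.83 with the slide as a block and 0.28 on spike-in controls as the scale, and ranged from 0.93 to 1.25 with each array left out. L2 normal minus WT normal, -0.65, was -0.16 on the controls, -0.38 with the slide as a block, and -0.77 to -0.51 with an array left out. L2 salt minus WT salt, 0.50, was 0.18 on the controls and 0.43 to 0.51 with an array left out. L2 salt minus L2 normal, 0.45, was 0.47 in the slide-blocked fit and 0.28 to 0.55 with an array left out. WT salt minus WT normal, -0.67 in the fit, turned to 0.040 on the controls, was -0.34 in the slide-blocked fit and -0.71 to -0.64 with an array left out. Scaling on the controls was chosen after seeing the data, and the cause of these moves was not tested.

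Of the 100 members, the rule also took 64 after quantile normalization, 54 with the median of each array, 64 after normexp, 23 on the controls, 51 with the flag asked of no array, 14 with the difference of means as the score and 50 as the top 50. It took 24 to 97 with an array left out, 24 without L2 normal 1 and 30 without L2 salt 3. In those settings more probes had a score above 0, 297 to 1112 against 296. The rule took 99 on the scanner values, which were set against the same percentile as the deposited table. It took 100 in the top 200 and with the flag asked of all arrays. The counts for the top 50, the top 200 and that flag were fixed in advance, since all members were well above background on every array.

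The calls of limma depended on weights and arrays. Members called lower with salt in WT numbered 21, 2 on the controls, 0 in the slide-blocked fit, and 13 to 23 with an array left out, 13 without WT normal 2. Over all probes the 3423 calls in WT became 0 in that fit and 519 to 4150 with an array left out. With array weights limma called 10 members lower in L2 without salt, 3 higher in L2 under salt stress and 3 higher with salt in L2. Without L2 normal 1 it called 20 members lower in L2 without salt. The replicate number as a block left the median difference between the responses at 1.09 with 0 members called, and called 0 in place of 1 member higher with salt in L2. Over all probes the 31 calls with salt in L2 became 49 with that block and 0 with it over the L2 arrays alone, an alternative added after seeing the data, in which 3418 probes had an unadjusted p below 0.05. In that alternative the numbers were treated as a pairing within L2 only because same-numbered arrays correlated. Whether the numbers mark a pairing was not tested, and the main fit has none. The other pairs of groups had no such fit of their own. In L2 the slide-blocked fit also called 0 members, and with an array left out 1 member was called in 3 of 12 fits (without L2 normal 2, WT salt 3 or L2 salt 3). The methods' t-test gave 0 members with salt in L2. On these arrays signal over background limits what is measured, and no slide holds both conditions of one line.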
